A study of Rattus norvegicus with 11 samples.

Results

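Chaperones bind unfolded proteins, and many of their genes are switched on when cells are stressed. A set of such genes, 10 symbols in all, was followed here through collagenase-induced hemorrhage of the rat striatum: Hspa1a, Hspa1b, Hspb1, Dnajb1, Hsph1, Hsp90aa1, Hspa8, Bag3, Cryab and Hspd1. They were picked by symbol from a table of 30560 genes, which listed 9 of the 10 symbols under 10 Ensembl identifiers. Hspa1b was not listed as a symbol of its own. Hspa1a appeared under 2 of them, ENSRNOG00000050647 and ENSRNOG00000045654, and the latter held 1 count in all 11 rats together. The other 9 identifiers had at least 10 counts in every rat, and all 9 entered the tests.

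The study compared 4 groups of adult male Sprague-Dawley rats at day 3, with 1 RNA library of striatum per rat and no replicate libraries of one animal. The 2 Normal rats received neither collagenase nor aspiration, so no group controls for the injection itself. The 3 IC rats (common hemorrhage) received 0.2 U of collagenase VII-S in 1.0 μL saline into the right striatum, and the 3 IS rats (severe hemorrhage) received 0.6 U in 3.0 μL, so enzyme and volume rose together. The 3 IS-HA rats received the IS dose and had 150 μL of hematoma aspirated after 6 h, under a further anesthesia and with a catheter passed through the clot, and no group had the catheter without the aspiration. Collagenase VII-S is a bacterial enzyme that opens vessel walls and causes bleeding into the tissue.

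In the heat shock response, unfolded proteins draw chaperones away from heat shock factor 1, which then binds repeated nGAAn units in the promoters of its target genes, the heat shock elements. The Hsp70 proteins (HSPA1A, HSPA8) hold and refold clients with ATP. J-domain proteins such as DNAJB1 hand clients to Hsp70, HSPH1 (Hsp110) and BAG3 exchange its nucleotide, and HSP90 finishes the folding of kinases and receptors. The small heat shock proteins HSPB1 (Hsp27) and CRYAB (αB-crystallin) hold unfolded proteins without ATP, and HSPD1 (Hsp60) folds proteins inside mitochondria.

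The promoter letters are shown first because heat shock elements are what these genes are known to share. RefSeq promoter windows of build GRCr8, 250 bases before to 50 after the annotated start, were given for 7 of the 10 symbols. The windows were searched for a pair of units facing each other, GAANNTTC, a pair facing apart, TTCNNGAA, and the triple, GAANNTTC followed by NNGAA, on both strands. The first 2 motifs read the same on both strands, and each triple holds 1 match of either pair. Below are the 250 bases before the start, in lower case with the paired units in capitals, for Hspb1 (chr12:26432302-26432551, minus strand), Bag3 (chr1:192533210-192533459, plus strand), Hspd1 (chr9:64084038-64084287, minus strand), Hsph1 (chr12:10427118-10427367, plus strand) and Hspa8 (chr8:50080264-50080513, plus strand), which take in genes called higher, called lower and not called after hemorrhage.
Hspb1: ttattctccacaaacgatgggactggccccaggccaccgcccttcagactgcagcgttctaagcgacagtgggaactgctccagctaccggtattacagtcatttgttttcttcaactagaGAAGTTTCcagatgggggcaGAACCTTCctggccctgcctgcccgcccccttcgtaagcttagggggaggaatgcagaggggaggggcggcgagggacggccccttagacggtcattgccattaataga
Bag3: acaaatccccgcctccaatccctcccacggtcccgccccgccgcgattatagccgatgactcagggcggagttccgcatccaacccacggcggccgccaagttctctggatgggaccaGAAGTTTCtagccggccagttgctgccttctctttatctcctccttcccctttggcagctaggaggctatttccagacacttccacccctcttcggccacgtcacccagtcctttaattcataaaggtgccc
Hspd1: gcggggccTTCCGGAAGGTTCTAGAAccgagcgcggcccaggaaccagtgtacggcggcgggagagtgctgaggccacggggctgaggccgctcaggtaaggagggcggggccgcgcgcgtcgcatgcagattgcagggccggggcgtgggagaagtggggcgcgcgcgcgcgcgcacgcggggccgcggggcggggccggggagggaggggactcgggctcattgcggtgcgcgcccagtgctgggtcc
Hsph1: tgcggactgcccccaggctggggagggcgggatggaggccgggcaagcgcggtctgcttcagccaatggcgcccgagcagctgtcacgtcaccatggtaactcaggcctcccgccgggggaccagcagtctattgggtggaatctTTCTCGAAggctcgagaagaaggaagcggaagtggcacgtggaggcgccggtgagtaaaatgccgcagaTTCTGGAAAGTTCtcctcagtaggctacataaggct
Hspa8: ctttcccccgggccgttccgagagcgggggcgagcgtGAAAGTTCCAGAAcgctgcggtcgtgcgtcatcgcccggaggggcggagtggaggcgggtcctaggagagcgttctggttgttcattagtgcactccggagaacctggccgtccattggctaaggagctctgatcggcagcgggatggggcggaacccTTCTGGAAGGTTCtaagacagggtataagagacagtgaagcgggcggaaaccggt

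Facing pairs stood in 6 of the 7 windows, against 8.34% of all 27457 promoter windows of this length. Hspb1 held 2 of them, at 129 to 122 and 109 to 102 bases before the start, and Bag3 held 1, at 132 to 125 bases before it. Dnajb1 had 1 just before its start and 1 after it. Pairs facing apart stood in 3 of the 7 windows, against 8.49% of all windows, and the triple stood in the same 3, Hspd1, Hspa8 and Hsph1, against 0.736% of all. In Hspd1 the units ran on over 2 overlapping triples 242 to 225 bases before the start. Of the 3 genes with the triple, Hspd1 was called higher in severe hemorrhage, Hsph1 lower and Hspa8 neither, and the genes with the largest increases had either the facing pair alone (Hspb1, Bag3) or no match in the window (Hspa1a). Among the windows of the other chaperone genes considered here, 19% of 58 held a facing pair and 8.62% the triple. These matches are letters only and were not tested as binding sites. Only the windows around the annotated starts were searched. A window without a match, as for Hspa1a, therefore does not show that the gene lacks heat shock elements.

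**Figure D1:**
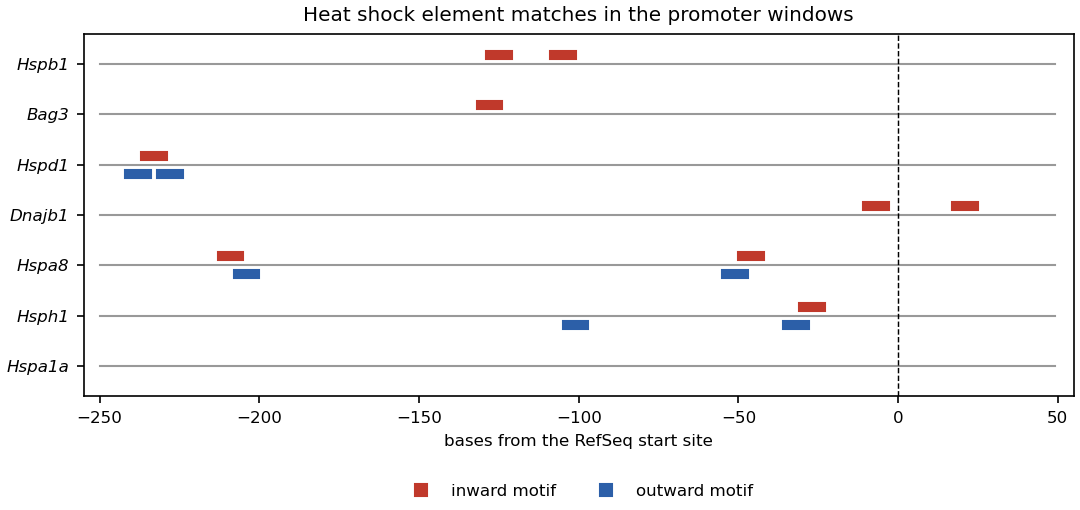
Positions of heat shock element pairs in the promoter windows of 7 chaperone genes, in bases from the RefSeq start site (dashed line at 0). Red boxes are pairs of units facing each other and blue boxes pairs facing apart. Hspd1, Hspa8 and Hsph1 carry both kinds side by side, and Hspa1a carries neither within the window searched.

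Between 6701301 and 18817645 counts per library were assigned to genes, with the Normal libraries among the deepest and IS-HA replicate 2 the shallowest. Values per rat are counts relative to the library size after TMM scaling (normalized CPM), and values compared between genes are TPM, which take gene length into account as well. Differences are log2 fold changes with standard errors (SE) from edgeR's quasi-likelihood test, fitted over all 11 rats and 15742 genes, and a gene is called at a Benjamini-Hochberg adjusted p under 0.05. Levels of cell type markers also differed between the groups. The summed normalized CPM of 12 striatal neuron markers was 8321 to 8546 in Normal, 2968 to 6094 in IC, 1560 to 3936 in IS and 1969 to 3616 in IS-HA, with none at 0 in any rat. That of 11 microglia and macrophage markers was 304 to 423, 1772 to 2392, 2732 to 3631 and 2187 to 3608 in the same order. For 6 neutrophil markers it was 4.3 to 4.98, 43.6 to 95.4, 164 to 220 and 65.3 to 263, although Mpo was at 0 in 9 of the 11 rats. Oligodendrocyte markers, 8 in number, summed to 25472 to 27496 in Normal and 9837 to 15874 in IS, endothelium and pericyte markers, 6 each, to 238 to 353 and 194 to 219 in Normal and 480 to 528 and 594 to 852 in IS. Of the 6 endothelium and of the 6 pericyte markers, 2 each were called higher and 1 lower in IS than in Normal. Of all genes tested, 24.8% were called higher and 24.2% lower. The endothelium and pericyte medians were 0.68 and 0.48 on the log2 scale. The 8 astrocyte markers summed to 5233 to 5738 in Normal, 10324 to 13021 in IC, 6183 to 10351 in IS and 8386 to 10191 in IS-HA. However, 1 of the 8 was called higher and 1 lower in IS than in Normal, beside the same shares of all genes. The astrocyte median was -0.52 on the log2 scale. In bulk tissue, fewer cells of a type and less RNA per cell cannot be told apart, and the part of these shifts in the results below was not tested.

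Against Normal, 4 of the 9 chaperone genes tested were called higher after severe hemorrhage and 2 were called lower. Hspb1, Hspa1a, Bag3 and Hspd1 were higher, Hsph1 and Hsp90aa1 were lower, and Hspa8, Dnajb1 and Cryab were not called. The 4 called higher make 44.4% of the 9, where 24.8% of all genes tested were called higher, and the 2 called lower make 22.2%, where the share of all genes was 24.2%. The common hemorrhage had 3 called higher (33.3%, against 13.0% of all genes) and 0 called lower, where 4.64% of all genes were. At an unadjusted p under 0.05 in edgeR, 1 was lower in IC (Hsph1), where 14.5% of all genes were, and DESeq2 called 0 lower after adjustment, where 9.85% of all genes were. After aspiration, 4 were called higher than Normal (44.4%, against 19.5%) and 1 lower (11.1%, against 12.1%). With 1 rat left out, the shares of all genes called higher and lower ran from 4.96% to 19.2% and 0.217% to 14.1% in IC, 14% to 30.2% and 10.6% to 29.2% in IS, and 7.62% to 20.8% and 2.18% to 12.9% in IS-HA, each lowest without Normal replicate 3, and in IC and IS highest without IS-HA replicate 2. The median log2 fold change of the 9 was 0.00 in IC, 0.39 in IS and 0.68 in IS-HA, beside 0.00, 0.02 and 0.06 over all genes tested. Every IS rat was above both Normal rats for 5 of the 9 genes and below them for 2, where 37.6% and 36.9% of all genes tested were so placed. The 3 comparisons share the 2 Normal rats.

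**Figure D2:**
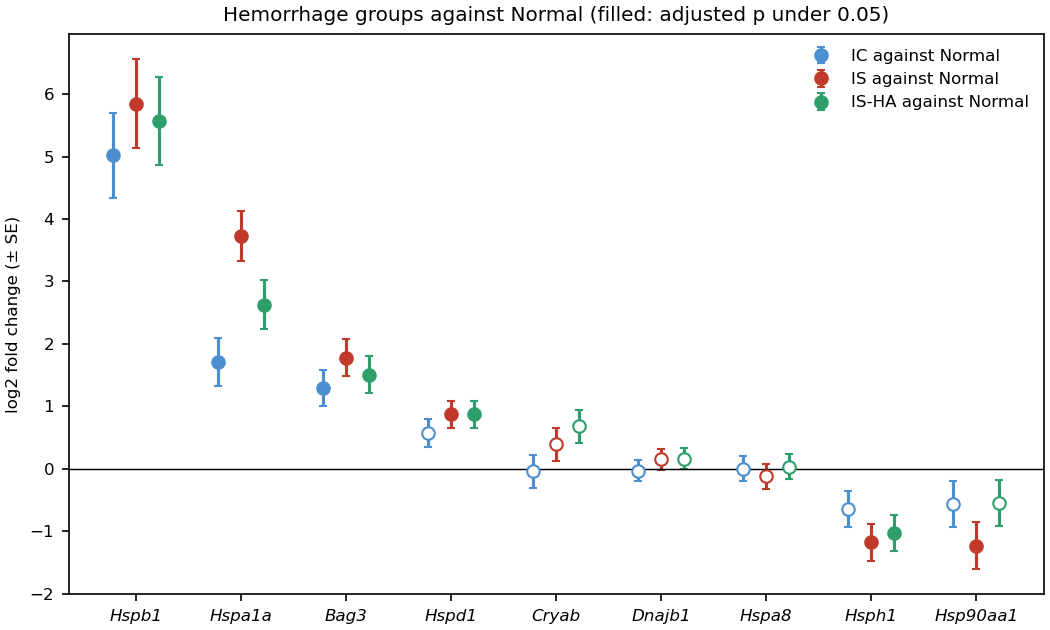
Log2 fold change with SE (vertical axis) of 9 chaperone genes in IC, IS and IS-HA rats against Normal rats, from edgeR; filled points are called at an adjusted p under 0.05. Hspb1, Hspa1a and Bag3 are filled and above 0 in all 3 groups, Hspd1 in IS and IS-HA, while Hsph1 is filled and below 0 in IS and IS-HA and Hsp90aa1 in IS.

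Hspb1 (ENSRNOG00000023546) encodes the small heat shock protein Hsp27, which holds unfolded proteins and steadies actin filaments. Its normalized CPM was 5.66 and 1.98 in the Normal rats, 98.3, 180 and 92.8 in the IC rats, 143, 258 and 261 in the IS rats, and 107, 314 and 125 in the IS-HA rats. Every hemorrhage rat thus lay far above both Normal rats, while the 3 hemorrhage groups overlapped. The log2 fold change against Normal was 5.02 in IC (SE 0.68, adjusted p = 0.000715), 5.85 in IS (SE 0.71, adjusted p = 0.000159) and 5.57 in IS-HA (SE 0.70, adjusted p = 0.000336). These are 32.4-fold, 57.8-fold and 47.6-fold differences, and all 3 calls held in every alternative run. Their size rests on a low Normal level in which the 2 rats themselves differed more than 2-fold. Its group means ran in the order IS, IS-HA, IC, Normal, and edgeR separated none of the first 3 from each other, with an adjusted p of 0.303 for IS against IC and 0.87 for IS-HA against IS.

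Hspa1a (ENSRNOG00000050647) encodes the stress-inducible Hsp70. It had a normalized CPM of 1.99 and 1.92 in Normal, 5.96, 7.96 and 5.21 in IC, 18.9, 26.2 and 33.5 in IS, and 7.99, 16.9 and 12 in IS-HA. No rat of one group lay within the range of another, in the order Normal, IC, IS-HA, IS, although the highest IC rat and the lowest IS-HA rat were nearly equal. It was the only one of the 9 genes with 4 groups apart in this way. How many of all genes tested were so placed was not counted, so the order is not shown to be particular to Hspa1a. Against Normal the log2 fold change was 1.71 in IC (SE 0.38, adjusted p = 0.0109), 3.73 in IS (SE 0.40, adjusted p = 8.5e-05) and 2.63 in IS-HA (SE 0.39, adjusted p = 0.000826), or 3.27-fold, 13.3-fold and 6.2-fold. The IC call was lost without Normal replicate 1 (adjusted p = 0.0734) or Normal replicate 3 (adjusted p = 0.11). Hspa1b has almost the same coding sequence, so reads that fit both copies could have been split, dropped or counted together under Hspa1a, of which RefSeq also gives Hspa1b as a synonym, and the level given for Hspa1a is uncertain.

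Bag3 (ENSRNOG00000020298) encodes a co-chaperone that releases clients from Hsp70 and, with HSPB8, directs damaged proteins to autophagy. Its normalized CPM was 23.3 and 12.1 in Normal, 36.6, 52.9 and 41.6 in IC, 49.1, 68.7 and 64.3 in IS, and 45.1, 57.9 and 48.7 in IS-HA. All hemorrhage rats were above both Normal rats, and the 3 hemorrhage groups overlapped. Against Normal, the differences were 1.30 in IC on the log2 scale (SE 0.29, adjusted p = 0.0113), 1.78 in IS (SE 0.30, adjusted p = 0.000929) and 1.51 in IS-HA (SE 0.29, adjusted p = 0.00382). Without Normal replicate 3, the lower of the 2 Normal rats, the IC value was 0.90 and not called (adjusted p = 0.133). Its partner Hspb8, one of the other small heat shock proteins, was 1.24 higher on the log2 scale in IS than in Normal (SE 0.22, adjusted p = 0.00139) and 1.10 higher in IC (adjusted p = 0.00659).

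Hspd1 (ENSRNOG00000014525), the mitochondrial Hsp60, moved less. Its normalized CPM was 127 and 134 in Normal, 177, 197 and 207 in IC, 227, 237 and 251 in IS, and 216, 315 and 184 in IS-HA. The Normal, IC and IS rats formed 3 ranges that did not overlap, and the IS-HA rats spread over those of IC and IS and beyond. Of all genes tested, 37.6% had every IS rat above both Normal rats and 19.2% had every IS rat above every IC rat. How many had all 3 ranges apart was not counted, so this order is not shown to be particular to Hspd1. The log2 fold change against Normal was 0.87 in IS (SE 0.22, adjusted p = 0.00841) and 0.87 in IS-HA (SE 0.22, adjusted p = 0.0141), whereas the IC value of 0.57 (SE 0.22) was not called (adjusted p = 0.0933). The IS call was lost without Normal replicate 1 (adjusted p = 0.0578) or Normal replicate 3 (adjusted p = 0.0558), and the IS-HA call likewise (adjusted p = 0.0878 and 0.0937) and also with the Normal and IS-HA rats fitted alone (adjusted p = 0.0835). The IC value was called without IS-HA replicate 2 (adjusted p = 0.0125) and under 5 other alternatives, among them limma on log2(TPM + 1) with an adjusted p of 0.0216. Hspe1, the Hsp10 that caps the Hsp60 chamber, had a log2 fold change of 0.82 in IS against Normal (SE 0.39) that was not called (adjusted p = 0.104), and the TPM of Hspd1 was 1.05 ± 0.433 (SD, n = 2) times that of Hspe1 in Normal and 1.01 ± 0.116 (SD, n = 3) times in IS. Processed copies of Hspd1 are frequent in mammalian genomes, and 2 near-identical entries of the table held counts equal to 3.74% of those of Hspd1.

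Hsph1 (ENSRNOG00000000902), the Hsp110 that exchanges the nucleotide of Hsp70, was lower after severe hemorrhage. The Normal rats had a normalized CPM of 363 and 379, the IC rats 273, 181 and 253, the IS rats 175, 194 and 122, and the IS-HA rats 251, 129 and 164. Every hemorrhage rat was below both Normal rats, and the hemorrhage groups overlapped. Log2 fold changes against Normal were -1.18 in IS (SE 0.29, adjusted p = 0.00753) and -1.03 in IS-HA (SE 0.29, adjusted p = 0.0229), whereas -0.65 in IC (SE 0.29) was not called (adjusted p = 0.143). The IS-HA call was lost without Normal replicate 1 (adjusted p = 0.0796), Normal replicate 3 (adjusted p = 0.123) or IS-HA replicate 3 (adjusted p = 0.0567), and the IC value was called when the Normal and IC rats alone were fitted (adjusted p = 0.0316). Of the striatal neuron markers, 11 of 12 were called lower in IS than in Normal, where 24.2% of all genes were, at a median of -1.65 on the log2 scale. In IS-HA 9 of 12 were, where 12.1% of all genes were, at a median of -1.71. The part of these markers in the fall of Hsph1 was not tested.

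Hsp90aa1 (ENSRNOG00000059714), the stress-responsive Hsp90α, was called lower in IS, with a wide spread between rats. Its normalized CPM was 851 and 1167 in Normal, 776, 623 and 648 in IC, 620, 395 and 278 in IS, and 992, 420 and 662 in IS-HA. The IC and IS rats were all below the Normal rats, and the highest IS-HA rat lay between the 2 Normal rats. The IC and IS rats did not overlap each other, although the lowest IC rat (623) and the highest IS rat (620) were nearly equal. In TPM, the highest IC rat (684) was above the lower Normal rat (670), and the highest IS rat (542) above the lowest IC rat (509). The log2 fold change against Normal was -1.23 in IS (SE 0.37, adjusted p = 0.0194), and neither -0.57 in IC (SE 0.37, adjusted p = 0.307) nor -0.55 in IS-HA (SE 0.37, adjusted p = 0.274) was called. The IS call was lost without Normal replicate 3 (adjusted p = 0.143), IS replicate 3 (adjusted p = 0.0569) or IS replicate 4 (adjusted p = 0.061). Hsp90ab1, the constitutive Hsp90β, had a log2 fold change of 0.10 in IS against Normal (SE 0.19, adjusted p = 0.688). In TPM, Hsp90aa1 stood at 0.467 ± 0.0888 (SD, n = 2) of Hsp90ab1 in Normal, 0.318 ± 0.0499 in IC, 0.184 ± 0.0619 in IS and 0.299 ± 0.112 in IS-HA (SD, n = 3 each). Every IS rat, from 0.132 to 0.252, was below both Normal rats, at 0.405 and 0.53. So was every IC rat, from 0.271 to 0.37, and every IS-HA rat, from 0.176 to 0.396.

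Hspa8, Dnajb1 and Cryab were not called in any of the 3 comparisons with Normal. Hspa8 (ENSRNOG00000034066), the constitutive Hsp70, had a normalized CPM of 1133 and 1220 in Normal, 1152, 1228 and 1141 in IC, 1223, 999 and 1026 in IS, and 1447, 1042 and 1116 in IS-HA. Its groups overlapped throughout, with log2 fold changes against Normal of -0.00, -0.12 and 0.03 in IC, IS and IS-HA, an SE of 0.20 in each and adjusted p-values of 0.992, 0.636 and 0.914. Dnajb1 (ENSRNOG00000021824), the J-domain partner of inducible Hsp70, had a normalized CPM of 55.9 and 51.8 in Normal, 52.3, 53.3 and 52.9 in IC, 57, 61 and 61.1 in IS, and 53.2, 73.7 and 53.5 in IS-HA. Its 3 IS rats lay just above the Normal and IC rats, but the log2 fold change against Normal was 0.15 (SE 0.17, adjusted p = 0.487). Cryab (ENSRNOG00000010524), a small heat shock protein known from astrocytes, oligodendrocytes and the lens, had a normalized CPM of 53.2 and 36.1 in Normal, 38.4, 46.3 and 45.7 in IC, 51.7, 65.3 and 58.1 in IS, and 66.9, 96.4 and 52.2 in IS-HA. All IS and IS-HA rats were above all IC rats, while the lowest rat of each of these groups fell below Normal replicate 1. In TPM, every IS rat (124, 146 and 122) and every IS-HA rat (166, 185 and 131) was above both Normal rats, at 115 and 85.8. The share of all genes so placed in TPM was not counted. Cryab had a log2 fold change against Normal of 0.68 in IS-HA (SE 0.26, adjusted p = 0.0691), 0.39 in IS (SE 0.26, adjusted p = 0.238) and -0.04 in IC (SE 0.26, adjusted p = 0.93), and the IS-HA value was called without IS-HA replicate 3 (adjusted p = 0.0319), with library size alone (adjusted p = 0.0289) and in TPM (adjusted p = 0.0289 at a pseudocount of 1).

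**Figure D3:**
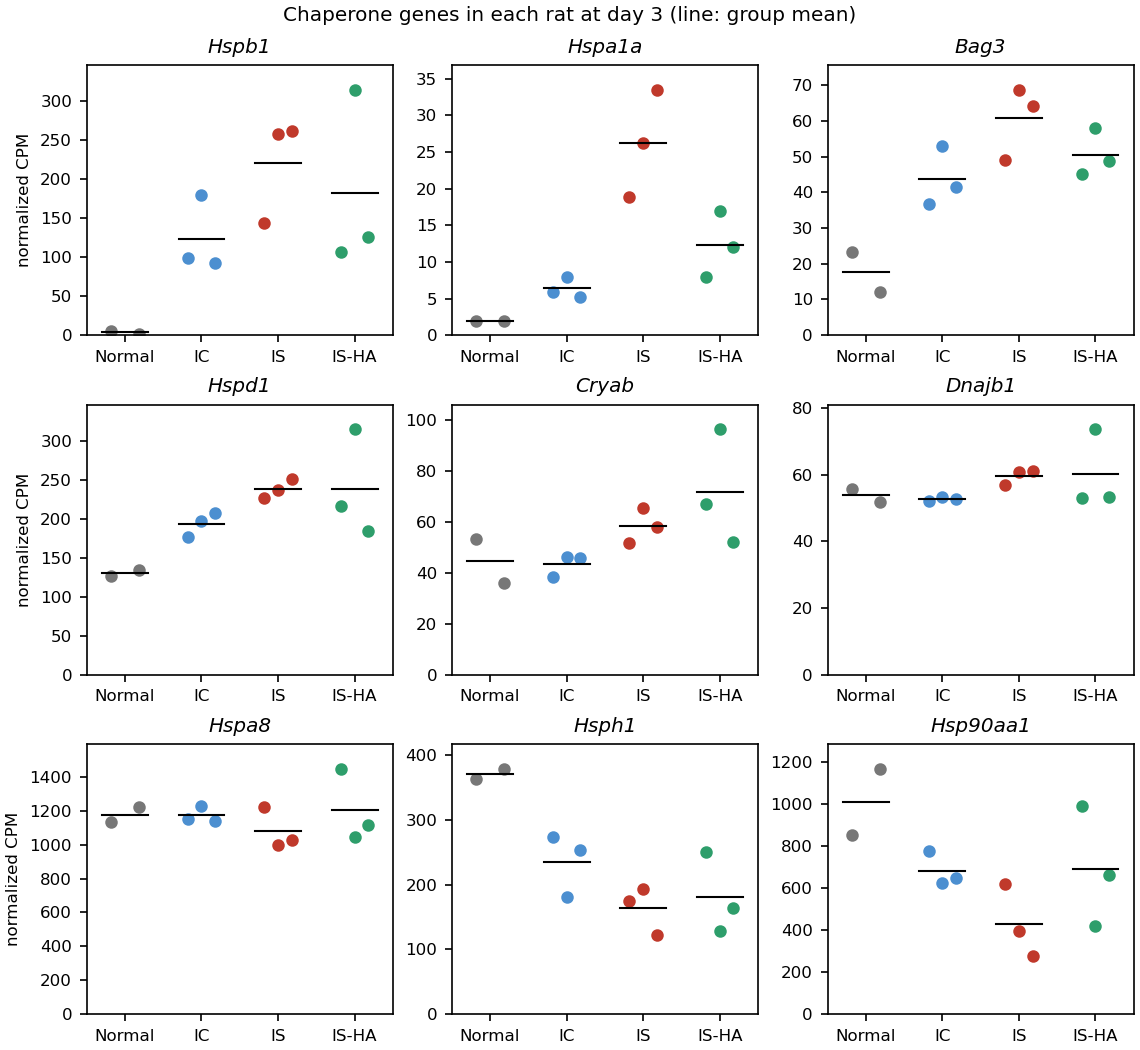
Normalized CPM of each chaperone gene (vertical axes, each from 0) in every rat, by group; points are rats and lines group means. Hspb1, Hspa1a and Bag3 stand above both Normal rats in all 9 hemorrhage rats, Hsph1 stands below them, and the 4 groups of Hspa8 overlap.

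Per length, Hspa8 was the most abundant of these genes in every group, and Hspb1 moved from near the bottom of the order toward the top. In Normal rats the mean TPM was 1034 ± 120 for Hspa8 and 838 ± 237 for Hsp90aa1, against 161 ± 15.1 for Hsph1, 126 ± 12.7 for Hspd1, 101 ± 20.9 for Cryab, 54.1 ± 0.547 for Dnajb1, 15.3 ± 6 for Bag3, 8.67 ± 5.48 for Hspb1 and 1.04 ± 0.0388 for Hspa1a (SD, n = 2 each). Hspa8 overlapped with Hsp90aa1 between the Normal rats and Bag3 with Hspb1, while Hspa1a stood below all others. In IS rats Hspb1 reached 500 ± 130 TPM (SD, n = 3), above Hsp90aa1 at 358 ± 168, with overlapping ranges of 351 to 590 and 212 to 542. Hspa1a reached 13.6 ± 2.9 TPM (SD, n = 3) and stayed the lowest of the 9.

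The summed TPM of the 9 genes was 2339 ± 353 in Normal (SD, n = 2), 2461 ± 289 in IC, 2357 ± 229 in IS and 2660 ± 460 in IS-HA (SD, n = 3 each), with overlapping ranges. What differed was the make-up. Hspb1 took 0.393% ± 0.294 of this sum in Normal, 12% ± 4.13 in IC, 21.6% ± 7 in IS and 16% ± 9.64 in IS-HA. Hsp90aa1 took 35.5% ± 4.79, 23.9% ± 3.33, 14.8% ± 5.59 and 21.6% ± 7.91 in the same order, and Hspa8 held between 39.9% and 44.3% on average. Within the small heat shock proteins, Hspb1 went from 0.0823 ± 0.0374 of the TPM of Cryab in Normal (SD, n = 2) to 3.81 ± 0.903 times that of Cryab in IS (SD, n = 3), so that Cryab was the more abundant in Normal rats and Hspb1 in all hemorrhage rats, whose lowest ratio was 1.63. Within Hsp70, Hspa8 exceeded Hspa1a 997 ± 78.3 times in Normal and 73.6 ± 29.6 times in IS.

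**Figure D4:**
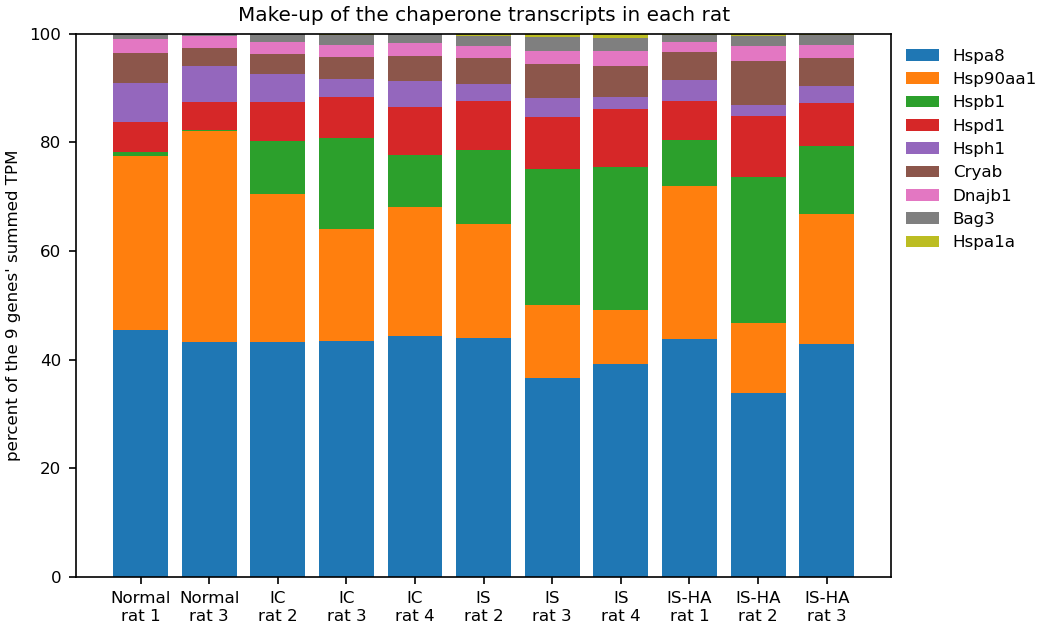
Share of each chaperone gene in the summed TPM of the 9 genes (vertical axis, percent) in each of the 11 rats, 1 bar per rat. Hspb1 (green) is at 0.6% or less in the Normal rats and between 8.54% and 26.9% in the hemorrhage rats, while Hsp90aa1 (orange) is between 32.1% and 38.8% in Normal and at most 28.2% after hemorrhage.

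Severe and common hemorrhage were then compared directly, which asks whether a larger bleed goes with a different chaperone level. With edgeR, 0 of the 9 genes were called higher and 0 lower in IS than in IC, where 0% of all 15742 genes were called in either direction, and at an unadjusted p under 0.05 the count was 1 higher and 0 lower, where 10.5% and 11.7% of all genes were. Without IS-HA replicate 2, edgeR called 6.38% of all genes higher and 7.71% lower. The gene with an unadjusted p under 0.05 was Hspa1a, at a log2 fold change of 2.03 (SE 0.31, 4.07-fold, adjusted p = 0.143), higher in every IS rat than in every IC rat. It was called by DESeq2's Wald test (adjusted p = 4.91e-06), where 2.99% of all genes were called higher and 3.22% lower, by voom with a quality weight per rat (adjusted p = 0.0169), where 6.26% were higher and 5.70% lower, and by edgeR without IS-HA replicate 2 (adjusted p = 0.0208). Over all alternatives its log2 fold change ranged from 1.68 to 2.22 and its adjusted p from 4.91e-06 to 0.516. In normalized CPM, every IS rat was above every IC rat for 4 of the 9 genes (Hspa1a, Dnajb1, Cryab and Hspd1) and below for 1 (Hsp90aa1), where 19.2% and 18.7% of all genes were so placed. In TPM, IS and IC overlapped for Dnajb1 and Hsp90aa1, and every IS rat was below every IC rat for Hsph1. The remaining log2 fold changes ran from -0.66 for Hsp90aa1 (SE 0.34, adjusted p = 0.264) to 0.83 for Hspb1 (SE 0.47, adjusted p = 0.303). Neutrophil markers, at 164 to 220 in IS and 43.6 to 95.4 in IC, differed between the same rats, and their part in the values for Hspa1a was not tested.

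Aspiration was compared with untreated severe hemorrhage to ask whether removing part of the hematoma goes with another chaperone level. With edgeR, 0 of the 9 genes were called higher in IS-HA than in IS, where 0.00635% of all genes were, and 0 were called lower, where 0% were. At an unadjusted p under 0.05, 0 were higher and 1 was lower, again Hspa1a, where 5.58% and 3.36% of all genes were. DESeq2 called 0 in either direction, where 0.311% of all genes were called higher and 0.140% lower. The log2 fold change of Hspa1a was -1.10 (SE 0.30, adjusted p = 0.499), with every IS-HA rat below every IS rat, a placing held by 5.42% of all genes. It was called by voom with quality weights (adjusted p = 0.0433), where 1.04% of all genes were called lower, and by edgeR without IS-HA replicate 2, where it was -1.39 (adjusted p = 0.0391) and 3.4% of all genes were called higher and 0.975% lower. Its adjusted p ranged from 0.0391 to 1 over the alternatives. Hsp90aa1 had a log2 fold change of 0.68 (SE 0.34, adjusted p = 0.563), with 2 of the 3 IS-HA rats above all IS rats, and the others lay between -0.28 for Hspb1 and 0.30 for Cryab. Against IC, IS-HA had 0 genes called in either direction, where 0% of all genes were, with 2 higher and 0 lower at an unadjusted p under 0.05, where 2.59% and 2.38% of all genes were. DESeq2 called 0 after adjustment, where 0.0635% of all genes were called in each direction. The 2 genes were Hspa1a at 0.92 (SE 0.31, adjusted p = 0.841) and Cryab at 0.72 (SE 0.23, adjusted p = 0.841), each higher in all 3 IS-HA rats than in all IC rats, as were 4.66% of all genes.

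The IS-HA rats were spread widely for several of these genes, with an SD of the normalized CPM of Hspd1 of 68.4, beside 15 in IC and 12.4 in IS. In TPM this SD was 31.1, beside 12.8 in IC and 4.35 in IS. In normalized CPM, IS-HA replicate 2 was the highest of its group for 6 of the 9 genes (Hspa1a, Hspb1, Bag3, Cryab, Hspd1 and Dnajb1) and the lowest for the other 3 (Hsph1, Hsp90aa1 and Hspa8). The placings of this rat were the same in TPM, except that it was the lowest for Bag3 (43.1, beside 43.4 and 47.2). It also had the smallest library, and its summed normalized CPM was 3608 for microglia and macrophage markers, beside 2187 and 2332 in the other IS-HA rats, and 263 for neutrophil markers, beside 65.3 and 81.3. Their part in its chaperone values was not tested. Without it, the log2 fold change of Hspb1 between IS-HA and IC changed from 0.55 to -0.09 and that between IS-HA and IS from -0.28 to -0.93 (adjusted p = 0.156), none of these values being called.

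Other chaperone and co-chaperone genes give the setting. Of 66 further genes in 8 families, 64 were listed and 60 tested. In IS against Normal 16 of the 60 were called higher (26.7%, against 24.8% of all genes) and 9 lower (15%, against 24.2%), the median of the 60 on the log2 scale being 0.14. In IC against Normal 4 were higher (6.67%, against 13.0%) and 1 lower (1.67%, against 4.64%), and in IS-HA against Normal 12 were higher (20%, against 19.5%) and 3 lower (5%, against 12.1%). With edgeR, 0 of the 60 were called between IS and IC, where 0% of all genes were in either direction. Between IS-HA and IS 0 were called too, where 0.00635% of all genes were higher and 0% lower.

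By family, the calls in IS against Normal were as follows, beside 24.8% of all genes called higher and 24.2% called lower. Chaperones of the endoplasmic reticulum (ER) had 7 of 10 higher and 0 lower, led by Serpinh1, the collagen chaperone Hsp47, at 2.22 (SE 0.29, adjusted p = 0.000259), and Pdia4, a disulfide isomerase, at 1.21 (SE 0.22, adjusted p = 0.00165). The chaperonins and their partner had 3 of 9 higher and 0 lower, all subunits of the cytosolic TRiC ring that folds actin and tubulin, namely Cct4 at 1.03 (SE 0.23), Cct3 at 0.87 (SE 0.27) and Cct5 at 0.72 (SE 0.19). J-domain co-chaperones had 0 of 11 higher and 5 lower. Among these were Dnajc6, the auxilin that uncoats clathrin vesicles in neurons, at -1.78 (SE 0.63, adjusted p = 0.0371), Dnajb4 at -1.21 (SE 0.45, adjusted p = 0.0461) and Dnaja4 at -1.04 (SE 0.34, adjusted p = 0.025).

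The remaining Hsp70 and Hsp110 family had 1 of 8 higher and 3 lower, beside the same shares of all genes. Hspa2 was higher by 2.15 on the log2 scale (SE 0.32, adjusted p = 0.000557), while Hspa12a stood at -1.97 (SE 0.41, adjusted p = 0.003) and Hspa4l, an Hsp110 like Hsph1, at -1.37 (SE 0.33, adjusted p = 0.00664). Hsph1 and Hspa4l were therefore both lower, next to higher Hspa1a and Hspa2. Hspa4, of the same family, was not lower, at -0.00 (SE 0.15, adjusted p = 0.994). Other co-chaperones had 4 of 14 higher, with Bag1 at 1.26 (SE 0.40, adjusted p = 0.0223) and Ptges3, the Hsp90 partner p23, at 0.75 (SE 0.20, adjusted p = 0.0104), and 1 lower, Bag4 at -1.40 (SE 0.42, adjusted p = 0.018). Of the small heat shock proteins 1 of 2 tested was higher, Hspb8, and 3 of the 5 listed had too few counts to be tested. Both Hsp90 genes tested, Hsp90ab1 and Trap1, were not called. The RNA of the factors that drive the response was not called, with Hsf1 at 0.12 (SE 0.21, adjusted p = 0.655) and Hsf2 at 0.01 (SE 0.19, adjusted p = 0.962), and neither Hsf4 nor Hsbp1, which encodes a protein that binds these factors, was called in IS by edgeR. In IS-HA against Normal, Hsf4 was higher by 1.03 (SE 0.34, adjusted p = 0.0411).

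**Figure D5:**
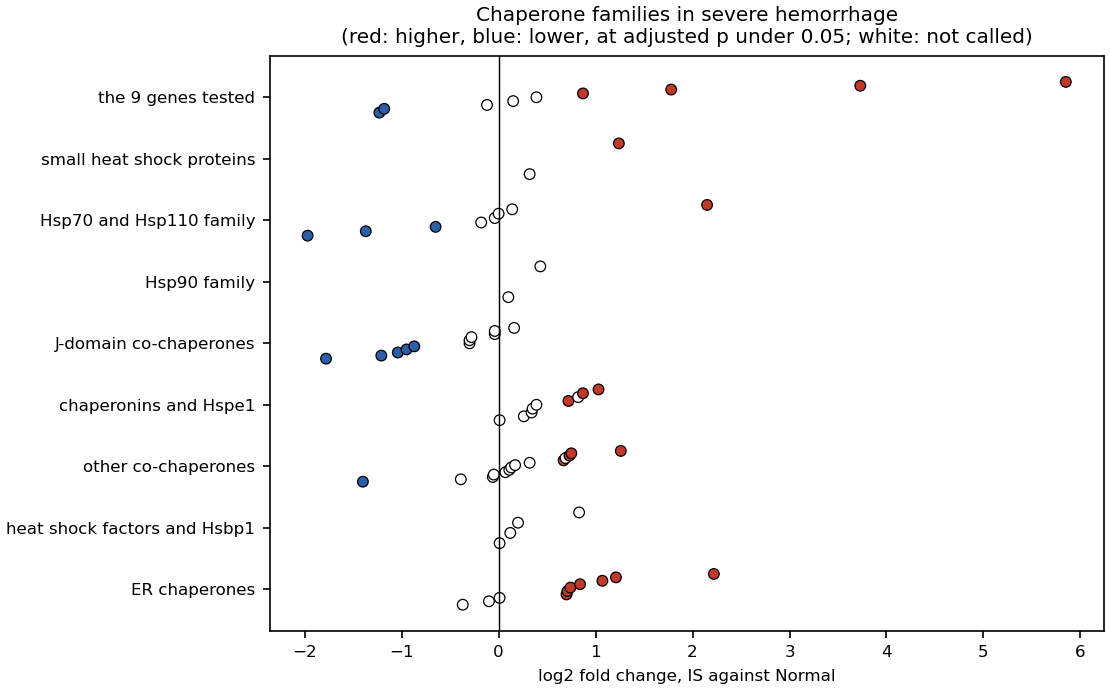
Log2 fold change of each tested gene in IS against Normal (horizontal axis), by chaperone family; red points are called higher, blue points lower, and white points not called. The ER chaperones and chaperonins have calls above 0 only, the J-domain co-chaperones have calls below 0 only, and the 9 chaperone genes of the report, in the top line, run from -1.23 for Hsp90aa1 to 5.85 for Hspb1. Of all genes tested, 24.8% were called higher and 24.2% lower.

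Across the 9 hemorrhage rats, the genes whose log2 CPM ran most like these were taken from 12286 genes with a mean of at least 5 CPM, as a description of rats that differ in group, depth and cell content. Hspa1a ran most like Ttll12 (Pearson r = 0.98), Slc25a20 (0.97) and Cnn2 (0.96). Hspb1 ran most like Cep131 (0.99), Rras (0.97) and Ftsj1 (0.97), and Cryab most like Fh (0.96), Immt (0.95) and Hat1 (0.95). Hspd1 ran most like Sil1, Sdf4 and Tufm, each at 0.99, of which Tufm encodes the elongation factor of mitochondrial translation and Sil1 the nucleotide exchange factor of the ER Hsp70.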

How the data were processed

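RNA of the striatum was sequenced from 11 rats at day 3, 2 Normal and 3 each in IC, IS and IS-HA, grouped by the labels. Libraries were stranded and poly(A)-selected. According to the submitters' processing notes, fastp 0.20.0, FastQC 0.11.9, HISAT2 2.1.0, SAMtools 1.9, featureCounts and DESeq2 were used with build mRatBN7.2, and the annotation release and the strand setting of the counting are not given in the sources used here. The authors deposited 1 table of 30560 genes, with read counts (whole numbers) and TPM in every library. Counts per library ran from 6701301 to 18817645, and 3 counts, taken as the floor, equal 0.159 to 0.448 CPM.

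Genes passing filterByExpr, 15742 in number, were tested on the deposited counts with TMM scaling and the quasi-likelihood F test of edgeR 4.0.16 (R 4.3.3), all 11 rats being fitted together. P-values were adjusted by Benjamini-Hochberg over the genes tested. The SE was approximated by dividing the size of a log2 fold change by √F. Near-identical copies were found by pseudogene-type symbols. The methods were tested on simulated data. Alternatives were DESeq2's size factors, library size alone, DESeq2 1.42.0's Wald test, limma 3.58.1 (voom with quality weights, and log2(TPM + 1) or log2(TPM + 0.1)), no filter, each rat left out, a fit of the compared groups alone, a minimum of 10 counts per rat, the replicate number as a block, both Hspa1a identifiers summed, 22 hemoglobin and mitochondrial genes left out, and a log2 cutoff of 1. Nothing states that same-numbered rats belong together, so the block was an alternative.

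The genes and the chaperone and marker lists were chosen with earlier results of these data known. All genes of the set are named. Of each further family, up to 3 genes with the largest change among those called in IS against Normal are named (2 per direction at most for the ER chaperones), with Hsf1 and Hsf2. Hspa4, Hspe1, Hsp90ab1, Trap1, Hsf4 and Hsbp1 were added after their values were seen. The 3 genes most like one of the set were taken by Pearson's r of log2 CPM (prior count of 2), for Hspb1, Cryab, Hspd1 and Hspa1a, the last in place of Hspa1b. Plots were drawn with matplotlib 3.10.9.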

Additional observations from a re-analysis of the deposited data

Results flagged for a closer look

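For Dnajb1, every IS rat lay above the Normal mean of normalized CPM and every IC rat below it. All 3 IS rats had a normalized CPM above the Normal mean of 53.8, at 57 to 61.1, and all 3 IC rats were below it, at 52.3 to 53.3. The difference between IS and IC was 0.18 on the log2 scale (SE 0.15), and edgeR did not call it (adjusted p = 0.478, with 0.228 to 0.691 over the alternatives). The IC rats lay between the 2 Normal rats, at 51.8 and 55.9. The placing did not hold in TPM, where the IC rats stood at 56.3, 58.7 and 50.7 and overlapped with IS. The Normal rats stood at 53.7 and 54.4 TPM. With 2 or 3 rats per group, single rats were not tested as outliers.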

How the results depend on the processing

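Of 1242 recomputed log2 fold changes, 1145 kept direction and side of the threshold, 16 became called, 23 lost their call and 58 changed sign, none of the last being called in the reported fit. Hspb1 kept its calls against Normal in every alternative, as did Hspa1a and Bag3 in IS and IS-HA. Library size alone moved the median of all genes against Normal to 0.14 in IC, 0.15 in IS and 0.18 in IS-HA. The cause of the changes below was not tested.

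The number of genes called higher in IC than Normal, 3 as reported, was 1 to 4 with 1 rat left out (1 without Normal replicate 3), and the number called lower, 0 as reported, was 1 when only the groups compared were fitted. In that last fit 2633 of all 15790 genes were called lower in IC, where 730 of 15742 were in the reported fit. The number called lower in IS than Normal, 2 as reported, was 1 to 2 with 1 rat left out (1 without Normal replicate 3, IS replicate 3 or IS replicate 4). The number called lower in IS-HA than Normal, 1 as reported, was 0 with library size alone and with only the groups compared, and 0 to 1 with 1 rat left out (0 without Normal replicate 1, Normal replicate 3 or IS-HA replicate 3). Of all genes, 1104 of 15742 were lower in IS-HA with library size alone and 750 of 15727 with only the groups compared. In the reported fit 1898 of 15742 were. The number higher in IS than IC, 0 as reported, was 1 by DESeq2's Wald test and by voom, and 0 to 1 with 1 rat left out (1 without IS-HA replicate 2). The number lower in IS-HA than IS, 0 as reported, was 1 by voom and 0 to 1 with 1 rat left out (1 without IS-HA replicate 2).

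With the replicate number as a block, 1 gene was called higher in IC than Normal (Hspb1), and 0 were called lower in IS or in IS-HA than Normal. Of all 15742 genes, 824 were called higher in IC under the block, beside 2040 in the reported fit. Those higher in IS and IS-HA numbered 1879 and 1752, beside 3908 and 3067, and those lower 908 and 664, beside 3802 and 1898. The calls of Hspa1a (adjusted p = 0.163) and Bag3 (0.0856) in IC were lost, as were those of Hspd1 in IS (0.136) and IS-HA (0.0831), of Hsph1 in IS (0.118) and IS-HA (0.071), and of Hsp90aa1 in IS (0.179). Deviations from the group means correlated across genes at a mean of -0.0749 in 11 same-numbered pairs of rats and 0.0249 in 34 others. Under the block, small log2 differences changed sign to -0.29 for Hsp90aa1 and -0.07 for Hspa8 in IS-HA against IC, 0.12 and 0.01 for Hspa8 in IC and IS against Normal, and 0.08 for Hspd1 and -0.09 for Hsph1 in IS-HA against IS.

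The other changes of sign were as follows. Against Normal, library size alone gave 0.10 for Cryab, 0.11 for Dnajb1 and 0.14 for Hspa8 in IC and 0.01 for Hspa8 in IS. Limma on TPM gave 0.04, 0.03 and 0.05 for Cryab, Dnajb1 and Hspa8 in IC with either pseudocount, and -0.10 for Hsp90aa1 and -0.02 for Hspa8 in IS-HA against IC. Hspa8 was 0.00 in IC without a filter and with only the groups compared, and -0.01 in IS-HA against Normal with DESeq2's size factors and Wald test. In IS-HA against IS, Dnajb1 was -0.02 with DESeq2's size factors and Wald test, -0.00 with library size alone, -0.15 by voom and -0.01 without hemoglobin and mitochondrial genes, Cryab was -0.01 by voom, and Hspd1 was 0.00 with at least 10 counts in every rat and with only the groups compared. The last setting gave -0.01 for Hsp90aa1 in IS-HA against IC. With 1 rat left out, log2 differences that changed sign ran from -0.08 to 0.03 for Dnajb1, -0.06 to 0.05 for Hspa8 and -0.29 to 0.27 for Cryab in IC against Normal. In IS-HA they ran from -0.01 to 0.24 for Dnajb1 and -0.12 to 0.12 for Hspa8 against Normal, from -0.16 to 0.09 for Dnajb1, -0.16 to 0.34 for Hsph1, -0.00 to 0.25 for Hspa8 and -0.25 to 0.13 for Hspd1 against IS, and from -0.09 to 0.93 for Hspb1, -0.33 to 0.28 for Hsp90aa1 and -0.12 to 0.13 for Hspa8 against IC.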
